A study of Mus musculus with 26 samples.

Results

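Genes that mark long-term haematopoietic stem cells were followed across 26 RNA-seq libraries of sorted leukaemic mouse bone marrow. They are 9 genes, Hlf, Procr, Mecom, Slamf1, Fgd5, Prdm16, Ctnnal1, Pdzk1ip1 and Ly6a, taken by symbol from the table of read counts, which lists 24091 genes. All 9 were present and all 9 were among the 13379 genes with enough counts to be tested. The study sorted LSK cells from marrow, which lack lineage markers, bear Sca-1 and c-Kit, and include stem cells and early progenitors. They came from mice with a model of chronic myeloid leukaemia (CML). Every mouse carried SCLtTA/BCR-ABL, in which a tetracycline-controlled activator under the stem cell leukaemia (SCL) gene's regulatory sequence drives the BCR-ABL oncogene, on a C57BL/6 background. The study asked what loss of Spred1, an inhibitor of RAS-MAPK signalling, does to these cells when it is lost everywhere, in haematopoietic cells or in endothelial cells.

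There were 5 groups. Spred1 wt (n = 5) and global KO (n = 6) are mice with the wild-type gene and mice that lack Spred1 in all tissues. HSC wt and HSC KO (n = 5 each) are mice without and with Spred1 deletion through Mx1-cre, and both received 7 intraperitoneal doses of 250 µg poly(I:C), 1 every 2 days, to switch the recombinase on. Mx1-cre answers to interferon and is known to act in tissues other than blood as well. EC KO (n = 5) are mice with Spred1 deleted in endothelial cells, by a driver that the labels do not name. The matching EC wt libraries were not analysed here, so EC KO was set against Spred1 wt. For the 3 groups without Mx1-cre the labels mention no poly(I:C). The protocol counts mice per group for HSC and EC mice, and the title numbers differ in all 26 libraries, but nothing says that each library is 1 mouse. P-values therefore measure the spread between libraries.

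Long-term haematopoietic stem cells are rare cells at the top of blood formation. They divide seldom, renew themselves and can rebuild the whole blood system after transplantation, whereas most other LSK cells are multipotent progenitors that have lost long-term renewal. The genes followed here are used as markers or reporters of such cells, so their level in LSK RNA depends on how many of the sorted cells are stem cells and on how much each cell transcribes. In bulk RNA, fewer cells of a type and less RNA per cell cannot be told apart.

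The promoters of 6 of the genes are shown because the libraries split the genes into a group that varied together and genes that did not. Hlf, Procr, Fgd5 and Prdm16 stand for the former, Slamf1 and Ctnnal1 for the latter. Each run is the 250 bases before the transcription start, 5′ to 3′ on the gene's strand, from RefSeq on build GRCm38.p6. Capitals mark matches to 11 short motifs on either strand. The intervals are chr11:90390918-90391167, minus strand for Hlf, chr2:155750967-155751216, plus strand for Procr, chr6:91978715-91978964, plus strand for Fgd5, chr4:154636874-154637123, minus strand for Prdm16, chr1:171766882-171767131, plus strand for Slamf1 and chr4:56865212-56865461, minus strand for Ctnnal1.
Hlf: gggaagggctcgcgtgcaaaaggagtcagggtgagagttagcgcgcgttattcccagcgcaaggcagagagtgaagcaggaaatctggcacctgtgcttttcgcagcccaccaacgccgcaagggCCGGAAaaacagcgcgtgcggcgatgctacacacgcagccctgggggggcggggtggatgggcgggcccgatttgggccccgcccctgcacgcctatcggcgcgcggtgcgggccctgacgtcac
Procr: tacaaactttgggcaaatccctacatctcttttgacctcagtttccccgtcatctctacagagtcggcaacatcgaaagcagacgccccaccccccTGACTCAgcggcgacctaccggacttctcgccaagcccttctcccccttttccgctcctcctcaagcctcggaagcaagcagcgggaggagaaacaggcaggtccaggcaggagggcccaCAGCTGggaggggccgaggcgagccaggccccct
Fgd5: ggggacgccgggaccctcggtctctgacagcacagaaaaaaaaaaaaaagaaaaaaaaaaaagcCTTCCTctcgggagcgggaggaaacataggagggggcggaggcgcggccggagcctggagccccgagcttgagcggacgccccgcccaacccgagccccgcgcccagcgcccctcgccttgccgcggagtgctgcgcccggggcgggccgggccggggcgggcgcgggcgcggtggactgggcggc
Prdm16: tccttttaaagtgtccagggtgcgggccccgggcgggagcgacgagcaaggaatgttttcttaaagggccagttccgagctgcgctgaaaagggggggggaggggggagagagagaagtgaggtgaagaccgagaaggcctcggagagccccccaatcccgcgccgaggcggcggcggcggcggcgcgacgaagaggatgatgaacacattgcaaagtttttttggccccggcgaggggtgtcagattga
Slamf1: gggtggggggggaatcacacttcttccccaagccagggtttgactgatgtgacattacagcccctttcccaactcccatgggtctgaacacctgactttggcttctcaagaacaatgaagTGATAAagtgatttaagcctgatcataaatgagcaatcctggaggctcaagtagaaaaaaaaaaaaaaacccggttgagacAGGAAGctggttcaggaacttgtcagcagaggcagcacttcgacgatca
Ctnnal1: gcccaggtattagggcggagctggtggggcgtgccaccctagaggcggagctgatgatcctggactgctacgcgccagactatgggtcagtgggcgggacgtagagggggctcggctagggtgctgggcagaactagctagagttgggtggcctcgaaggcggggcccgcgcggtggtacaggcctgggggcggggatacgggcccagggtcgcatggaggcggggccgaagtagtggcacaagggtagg

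The motifs searched, with the share of 32851 RefSeq promoter windows of this length that hold each, were the GATA forms AGATAA (9.99%) and TGATAA (7.94%), the ETS forms CCGGAA (12%) and AGGAAG (29.5%), RUNX TGTGGT (14%), the E-boxes CAGCTG (13%) and CAGATG (14.4%), the interferon response form of GAAA and GAAA with any 2 bases between (2.98%), the GAS form TTCNNNGAA (7.02%), the PAR bZIP site TTACGTAA (0.113%) and AP-1 TGANTCA (6.75%). Counting back from the transcription start, Hlf held CCGGAA from base -125. Procr held TGACTCA, a form of the AP-1 motif, from base -154 and CAGCTG from base -34. Fgd5 held AGGAAG on the other strand, printed as CTTCCT, from base -186, and Slamf1 held TGATAA from base -130 and AGGAAG from base -49. No match to the 11 motifs was found in the Prdm16 and Ctnnal1 windows. Of the windows not printed, Pdzk1ip1 held CAGCTG (-111) and CAGATG (-81). The upstream Mecom start held the interferon response form on the other strand (-192), CAGATG on the other strand (-57) and TGATAA (-31), and its downstream start held no match. No match overlapped another. GC content of the windows ran from 47.2% (Slamf1) to 71.6% (Fgd5) around a median of 52.4% over all windows. No motif was shared by all 6 genes that varied together, and a match is a description of letters, not a binding site.

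Total counts lay between 14816100 and 26714300 per library. Spred1 itself averaged 114 ± 20.7 CPM (reads of a gene relative to the depth of its library; mean ± SD, n = 5) in Spred1 wt, 32.7 ± 7.36 in global KO, 104 ± 4.90 in HSC wt, 35.4 ± 7.29 in HSC KO and 70.4 ± 11.4 in EC KO. It was lower in each knockout group than in its control, and least so in EC KO. Kit, whose product defines the sort, was abundant in all groups, whereas the lineage markers Cd3e and Ms4a1 averaged under 1 CPM in Spred1 wt and EC KO. Itgam, the gate's myeloid marker, averaged 66.8 ± 25.6 CPM in Spred1 wt. Mast cell and basophil transcripts were present throughout, with the summed level of 10 such genes between 1456 and 15635 CPM. Xist was at 2225 CPM or more in 3 of 5 HSC KO, 2 of 5 HSC wt and 2 of 5 EC KO libraries and at 5.07 CPM or less in the others, so the groups differ in their share of libraries from female mice. HSC KO 1 stood apart from its group: a list of erythroid genes summed to 356 CPM there and to 8.64 to 23.96 CPM in the other 4 libraries, and a list of plasma and B cell genes to 902 CPM against 42.4 to 148 CPM.

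The 9 genes span a wide range of levels. Per kilobase of the gene's length in the table, Ly6a was highest at 58.0 CPM per kb (91.4th percentile of the tested genes), followed by Hlf at 36.9 (84.9th percentile). Procr and Pdzk1ip1 lay near the middle at 10.7 CPM per kb each. Mecom (4.55), Fgd5 (2.6), Prdm16 (2.46), Ctnnal1 (1.72) and Slamf1 (1.2, the 17.3rd percentile) were low. Slamf1 rested on 35 to 167 counts per library, the fewest of the 9, and Hlf on 1735 to 9370. The spread over libraries was as uneven: the highest library exceeded the lowest 5.39-fold for Slamf1, 4.90-fold for Procr and 4.42-fold for Fgd5, but 2.0-fold for Ctnnal1 and 2.04-fold for Ly6a.

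Among the transcription regulators, Hlf encodes a PAR bZIP factor that marks quiescent stem cells. It lies at chr11:90336535-90390917 on the minus strand (mm10, as for all genes that follow). Its level was 314, 287, 193, 113 and 182 CPM in the Spred1 wt libraries, and 142 to 367 CPM (median 228) in global KO. In HSC wt it was 321, 254, 178, 152 and 168 CPM, in HSC KO 247, 132, 171, 165 and 127 CPM, and in EC KO 186, 135, 168, 224 and 394 CPM. EC KO held the highest Hlf value of all 26 libraries and Spred1 wt the lowest, and every pair of groups overlapped. Mecom (chr3:29951296-30548008, minus strand) is a gene of the PR-domain zinc finger family and is needed to maintain stem cells. It averaged 44.6 ± 12.4 CPM (SD, n = 5) in Spred1 wt, 45.7 ± 9.42 in global KO (n = 6), 39.7 ± 12.4 in HSC wt, 33.2 ± 6.48 in HSC KO and 38.1 ± 12.2 in EC KO. Its spread within groups was larger than the distance between most group means.

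Prdm16, the other PR-domain factor and a relative of Mecom, lies at chr4:154316125-154636873 on the minus strand. It read 27.6, 29.1, 18.7, 25.2 and 26.9 CPM in Spred1 wt and 15.9 to 34.2 CPM (median 23.5) in global KO. In HSC wt it read 35.4, 27.5, 22.9, 17.5 and 23.3 CPM, in HSC KO 18.3, 15.3, 19.8, 17.5 and 14.2 CPM, and in EC KO 16.4, 14.1, 11.9, 16.7 and 25.2 CPM. The HSC KO and EC KO libraries gathered at the low end, with EC KO 5 apart from the other EC KO libraries, and both groups still overlapped their controls. A non-coding gene, 5930403L14Rik, lies inside Prdm16 on the same strand, so the counts of this pair may not be independent.

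Among the surface proteins, Procr (chr2:155751217-155755478, plus strand) encodes the endothelial protein C receptor, used to sort stem cells. It read 32.5, 29.2, 14.7, 11.9 and 14.6 CPM in Spred1 wt and 11.7 to 29.95 CPM (median 20.3) in global KO. HSC wt libraries were at 26.3, 22.4, 14.9, 9.89 and 14.99 CPM, HSC KO libraries at 12.9, 9.54, 12.9, 9.37 and 8.08 CPM, and EC KO libraries at 19.6, 12.4, 14.6, 30.5 and 39.6 CPM. Procr was narrowest in HSC KO, where no library passed 12.9 CPM, while the other 4 groups each reached 26.3 CPM or more. Slamf1 (chr1:171767132-171801184, plus strand) encodes CD150, the receptor that separates stem cells from progenitors in the SLAM code. It read 3.59, 6.12, 3.20, 3.96 and 4.36 CPM in Spred1 wt, and 2.78 to 7.20 CPM (median 4.03) in global KO. It read 7.89, 5.28, 3.62, 4.39 and 3.73 CPM in HSC wt, 6.76, 5.20, 2.40, 3.27 and 3.79 CPM in HSC KO, and 1.46, 3.72, 2.43, 2.20 and 2.56 CPM in EC KO. Of the EC KO libraries, 4 lay below every Spred1 wt library. Ly6a (chr15:74994877-74998031, minus strand) encodes Sca-1, which the sort itself selects on, so its level is no independent readout of these cells. It averaged 65.0 ± 13.8 CPM in Spred1 wt, 56.2 ± 8.68 in global KO, 55.8 ± 17.7 in HSC wt, 55.8 ± 15.3 in HSC KO and 57.0 ± 7.40 in EC KO. Ly6a belongs to a family of related paralogs, which may make its counts uncertain, though this was not tested.

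Of the remaining genes, Fgd5 (chr6:91978965-92076005, plus strand) encodes an exchange factor for the GTPase Cdc42 and serves as a stem cell reporter locus. It read 23.1, 25.02, 13.7, 11.8 and 17.5 CPM in Spred1 wt, 27.8, 20.1, 11.2, 9.99 and 14.2 CPM in HSC wt, and 14.99, 10.9, 10.7, 8.21 and 6.30 CPM in HSC KO. EC KO split into 3 low libraries at 9.71, 8.80 and 8.95 CPM and 2 high libraries at 20.8 and 23.7 CPM. In global KO it ran from 12.2 to 23.97 CPM (median 18.9). Pdzk1ip1 (chr4:115088708-115093894, plus strand) encodes the small membrane protein MAP17. It averaged 14.3 ± 1.57 CPM in Spred1 wt, 13.4 ± 3.59 in global KO, 12.4 ± 3.82 in HSC wt, 8.78 ± 3.08 in HSC KO and 10.9 ± 4.83 in EC KO. Ctnnal1 (chr4:56810935-56865211, minus strand) encodes alpha-catulin, another stem cell reporter gene. It was the steadiest of the 9, at 11.5, 10.7, 10.48, 8.96 and 13.9 CPM in Spred1 wt and 14.97, 12.1, 12.5, 13.5 and 11.6 CPM in HSC wt. Global KO read 7.48 to 11.5 CPM (median 9.80), and the ranges in HSC KO and EC KO were 10.55 to 13.8 and 9.97 to 12.4 CPM. Of the 90 pairs of groups over the 9 genes, 1 did not overlap: every HSC wt library lay above every global KO library for Ctnnal1. The share of all tested genes apart between these groups was not computed. In the comparisons tested below it ran from 0.321% to 5.55%. HSC wt and global KO differ in Spred1 and, as far as the labels say, in poly(I:C). They also differ in sex, with Y-linked transcripts in 3 of 5 HSC wt and 6 of 6 global KO libraries. When the groups were ordered by mean, none of the 36 pairs of neighbours was apart.

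**Figure D1:**
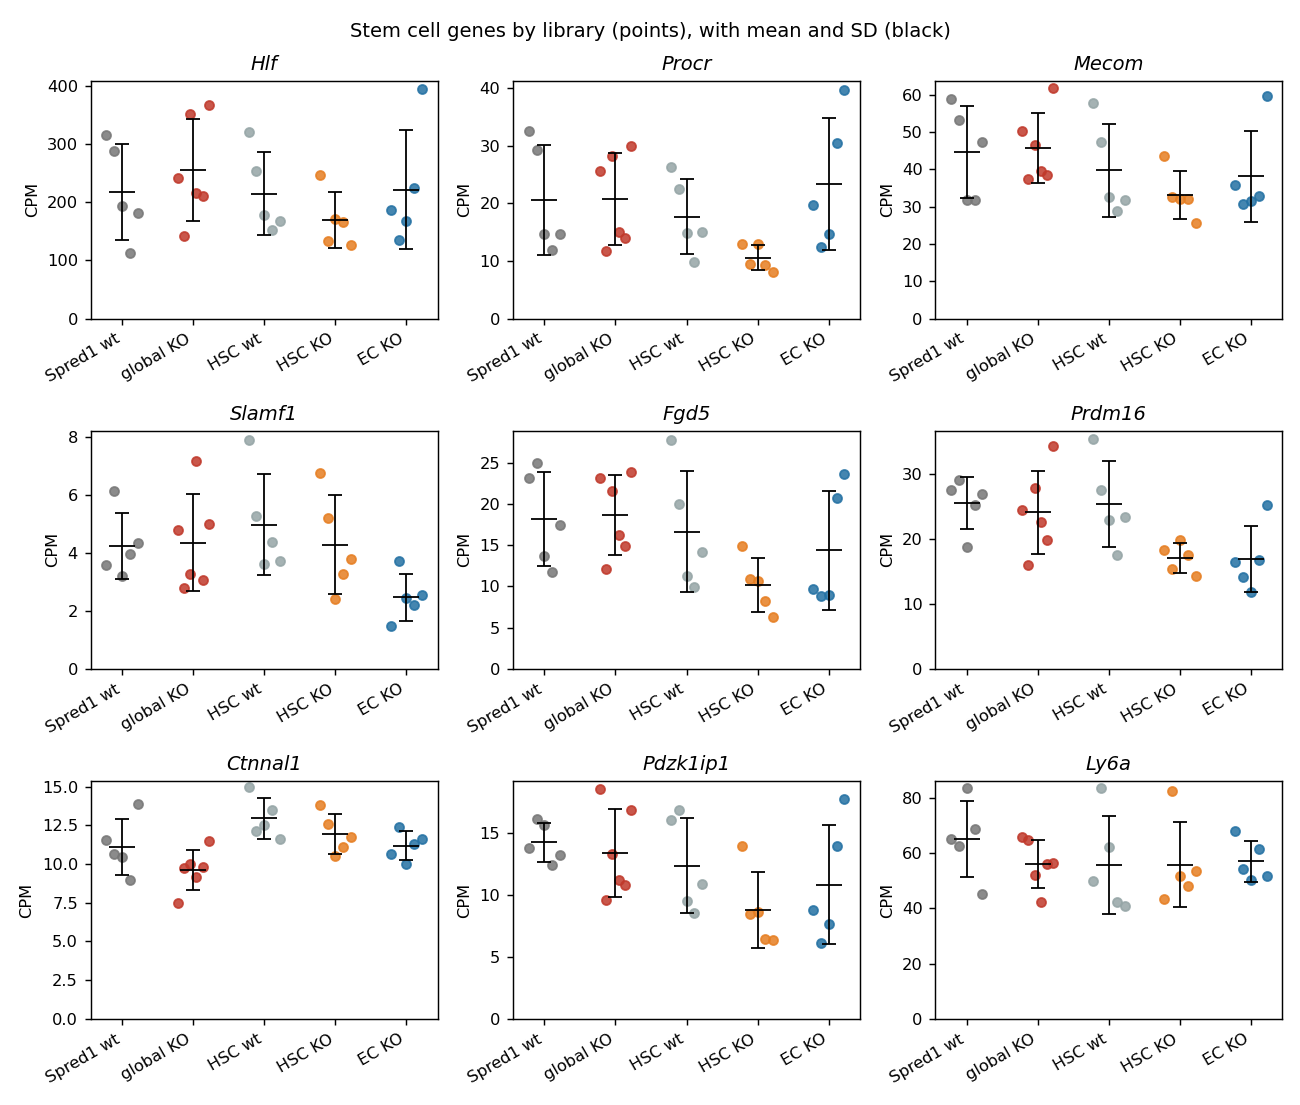
Level of each of the 9 genes (y axis, CPM) in the 26 libraries (points), by group (x axis), with the group mean and SD in black. HSC KO libraries sit low for Procr, where none passes 12.9 CPM, and 4 of 5 EC KO libraries lie below all Spred1 wt libraries for Slamf1 and for Prdm16.

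HSC KO against HSC wt is the comparison in which the genes most often pointed the same way, and none passed the test. Of the 9, 8 were lower in HSC KO, with a median log2 difference of -0.35, against a median of 0.02 and 43.1% below 0 over all tested genes. Hlf, Procr, Mecom, Fgd5, Prdm16 and Pdzk1ip1 varied together between libraries, as described below. Their shared sign is therefore not 6 separate observations, here or in the other comparisons. The largest point estimates were those of Procr at -0.74 ± 0.35 (SE, 95% interval -1.47 to -0.01), Fgd5 at -0.71 ± 0.33 (-1.38 to -0.03) and Prdm16 at -0.57 ± 0.20 (-0.99 to -0.16). Pdzk1ip1 was at -0.49 ± 0.27, Hlf at -0.35 ± 0.31, Mecom at -0.26 ± 0.22, Slamf1 at -0.22 ± 0.30 and Ctnnal1 at -0.11 ± 0.12. Ly6a, the gate's own gene, was at 0.00 ± 0.19. In edgeR's quasi-likelihood test with Benjamini-Hochberg adjustment over all genes, the adjusted p was 0.999 for each of the 9, and 0 were called, as in DESeq2 and limma voom; 0.0224% of all tested genes were called. Procr, Fgd5 and Prdm16 had unadjusted p under 0.05, which 2.16% of tested genes had. None of the 9 had groups that did not overlap (0.65% of tested genes).

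The same direction was found in the wider set of stem cell genes, a list of 20 that holds none of the 9. It is no independent evidence, since the list was chosen with earlier results of these data known. Its mean also ran with that of the 9 genes over the same libraries (r = 0.884, deviations from the group mean). In HSC KO 16 of 20 were lower (median -0.27) and 0 passed the edgeR test; without HSC KO 1, 18 of 20 were lower (median -0.46), again with 0 called. Esam, an adhesion molecule of stem cells and endothelium, was at -0.56 ± 0.20, with 14.5 ± 2.41 CPM in HSC KO and 21.4 ± 6.68 in HSC wt. Cdkn1c, the cell cycle inhibitor p57, was at -0.78 ± 0.33 and Trim47 at -0.54 ± 0.22. The 3 had the smallest p of that list. All 12 mitosis genes had positive differences, by a median of 0.08, where 56.9% of all tested genes were above 0, and 0 passed. Surface markers of LSK cells lay near 0, with Kit at -0.16 ± 0.18, Cd34 at -0.02 ± 0.12, Flt3 at 0.05 ± 0.23 and Cd48 at 0.03 ± 0.14. Mast cell and basophil genes were split, 4 higher and 6 lower, with a summed level of 1565 to 11537 CPM in HSC KO and 3455 to 6399 in HSC wt.

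The size of the HSC KO median depended on few libraries. It was -0.17 without HSC wt 1 and -0.53 without HSC KO 1. HSC wt 1 was the highest of its group for Hlf, Procr, Mecom, Slamf1, Fgd5, Prdm16 and Ctnnal1. HSC KO 1 was the highest of its group for Hlf, Mecom, Slamf1, Fgd5, Ctnnal1 and Pdzk1ip1. With the mast cell transcripts as a covariate the median was -0.54 and with Xist as a covariate -0.23. Over the 2 HSC KO and 3 HSC wt libraries with Y-linked transcripts it was -0.72. It stayed negative in each of these fits, and in each of them 0 of the 9 genes were called.

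In EC KO against Spred1 wt many genes of the transcriptome passed the test, 7.96% of those tested, but 0 of the 9 did in the edgeR fit. The closest were Prdm16 and Slamf1. Prdm16 averaged 16.9 ± 5.08 CPM in EC KO and 25.5 ± 4.05 in Spred1 wt, a log2 difference of -0.59 ± 0.20 (95% interval -1.01 to -0.18, edgeR adjusted p = 0.0657). Slamf1 averaged 2.48 ± 0.814 against 4.25 ± 1.13 CPM, a difference of -0.78 ± 0.30 (-1.41 to -0.15, edgeR adjusted p = 0.107). For both, 4 of 5 EC KO libraries lay below every Spred1 wt library, and the exceptions were EC KO 5 for Prdm16 and EC KO 2 for Slamf1. These 2 of 9 had unadjusted p under 0.05, where 25.1% of all tested genes did, and none of the 9 had groups apart (5.55%). The other genes spread over both signs, from Pdzk1ip1 at -0.40 ± 0.26 and Fgd5 at -0.34 ± 0.32 through Hlf at 0.02 ± 0.31 to Procr at 0.18 ± 0.35. The median was -0.23, with 6 of 9 lower, against 0.02 and 46.5% over all tested genes. Without EC KO 5 it was -0.47 with 9 of 9 lower, where 52.7% of all genes were, and limma voom gave -0.42, also with 9 of 9 lower, where 48.6% were. It was nearer 0 with Xist as a covariate or both wild types as the control (-0.14 in each) and over the libraries with Y-linked transcripts (-0.13).

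Whether Prdm16 and Slamf1 passed turned on the control, the tool and the libraries. With HSC wt as the control in the same fit, Slamf1 fell by 1.01 on the log2 scale (edgeR adjusted p = 0.0326) and Prdm16 was at -0.58 (edgeR adjusted p = 0.0588), where 11.3% of tested genes were called. Against the average of Spred1 wt and HSC wt both fell, Prdm16 by 0.59 (edgeR adjusted p = 0.0259) and Slamf1 by 0.89 (edgeR adjusted p = 0.0269), where 15.3% of tested genes were called. DESeq2 (adjusted p = 0.0319) and limma voom with sample quality weights (adjusted p = 0.0151) called Prdm16 but not Slamf1, where they called 11.6% and 13.8% of tested genes. Without EC KO 5, Prdm16 fell by 0.81 (edgeR adjusted p = 0.00942), where 14% of tested genes were called, and without Spred1 wt 3 it fell by 0.69 (edgeR adjusted p = 0.0430), where 7.29% were. Over all settings, libraries left out included, the adjusted p of Prdm16 lay between 0.00640 and 0.230.

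Markers of other cells moved in the same comparison, in which 46.5% of all tested genes were lower and 7.96% were called. Of the 10 mast cell and basophil genes, 7 were lower in EC KO (median -1.95) and 2 fell, the mast cell protease Mcpt4 by 3.74 (19.8 ± 25.7 against 265 ± 125 CPM, edgeR adjusted p = 0.0130) and the granzyme Gzmb by 2.62 (edgeR adjusted p = 0.0242). Their summed level was 1733 to 4747 CPM in EC KO and 2551 to 15635 in Spred1 wt, and no gene of the list was at 0 throughout a group. The EC KO libraries split: the mean log2 CPM of the list was 7.86 and 7.90 in EC KO 1 and 2, the libraries with Xist, and 4.83 to 5.15 in EC KO 3, 4 and 5, where Spred1 wt ran from 7.37 to 9.45. Over the libraries with Y-linked transcripts alone, which leaves out EC KO 1 and 2, the list's median was -4.02 and 6 of its genes fell. In that fit 5.88% of all tested genes were called. With the mast cell transcripts as a covariate the median of the 9 genes was -0.72 and 4 were called, Prdm16, Slamf1, Fgd5 and Pdzk1ip1, where 20.1% of all tested genes were called in the same fit. In that fit Hlf and Procr turned from 0.02 and 0.18 to -0.72 and -0.60. Kit, part of the sort gate, fell by 0.85 (516 ± 126 against 930 ± 182 CPM, edgeR adjusted p = 0.00447). Kit is also abundant in mast cells, and whether its fall is linked to that of the mast cell genes was not tested. Of a list of 10 endothelial genes, Cdh5, Cldn5, Lyve1 and Sox18 averaged at most 1.15 CPM in EC KO and 0.598 CPM in Spred1 wt. The whole list summed to 137 to 210 CPM in EC KO and 163 to 195 CPM in Spred1 wt, where Pecam1 was by far the highest. Levels of its other members are not given here. Of the 9 endothelial genes tested 5 were higher and 4 lower in EC KO (median 0.03), with 0 called. Among the 20 other stem cell genes 16 were lower (median -0.20) and 1 fell, where 7.96% of all tested genes were called. It was Trim47, by 0.73 (13.6 ± 3.33 against 22.6 ± 4.51 CPM, edgeR adjusted p = 0.0400). Without EC KO 5, 17 of the 20 were lower (median -0.35) and 4 fell, where 52.7% of all tested genes were lower and 14% were called. Vwf, the von Willebrand factor gene of platelet-primed stem cells, was at -1.16 ± 0.43 and the stress gene Nupr1 at -0.93 ± 0.34, without passing.

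Genes linked to the regulators were read from lists of their own. Prdm16 and Mecom proteins work with the corepressors of the CtBP, SKI and histone methyltransferase families. In EC KO 7.96% of all tested genes passed the edgeR test. Near that share, 1 passed in a list of 9 genes that includes both factors. It was Ski, which fell by 0.42 (60.4 ± 8.03 against 80.8 ± 12 CPM, edgeR adjusted p = 0.0126). Its relative Skil was at -0.47 ± 0.19, while Ctbp1 was at 0.17 ± 0.07 and Hdac1 at 0.16 ± 0.06. Of the relatives and partners of Hlf, the PAR bZIP gene Tef was at -0.32 ± 0.10 (edgeR adjusted p = 0.0570) and the repressor Nfil3 at -0.29 ± 0.21, with 0 of 6 called. In HSC KO none of these genes passed.

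In global KO against Spred1 wt the genes lay on both sides of 0, 5 higher and 4 lower, where 45.5% of all tested genes were lower, with a median of 0.01 both for them and over all tested genes. With a library left out their median ran from -0.13 to 0.098, and it was -0.20 in limma voom and -0.23 with the mast cell covariate. None was called by edgeR, DESeq2 or limma voom (0.0747% of tested genes in edgeR), 0 had unadjusted p under 0.05 (5.53% of tested genes) and none had groups apart (0.321%). The extremes were Hlf at 0.22 ± 0.30 and Ly6a and Ctnnal1 at -0.21 ± 0.18 and -0.21 ± 0.11. Ctnnal1 had the smallest p (edgeR adjusted p = 0.915) and the narrowest interval, -0.44 to 0.02. The interval of Procr ran from -0.68 to 0.69, so that differences up to that size in either direction were not excluded for that gene. The 20 other stem cell genes were 7 higher and 13 lower, with 0 called.

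Spred1 was at 32.7 CPM in global KO and 35.4 CPM in HSC KO, and the difference between the effects of these deletions was tested directly. The global KO effect minus the HSC KO effect was above 0 for 7 of 9 genes (median 0.40, where all tested genes had a median of -0.01 and 47.8% above 0). That median was 0.22 in limma voom, 0.27 without HSC wt 2 and 0.64 over the libraries with Y-linked transcripts. It was 0.75 ± 0.49 for Procr, 0.74 ± 0.45 for Fgd5, 0.57 ± 0.43 for Hlf and 0.49 ± 0.28 for Prdm16. The edgeR adjusted p was 0.9998 for each, 0 of 9 were called (0.0149% of tested genes) and 0 had unadjusted p under 0.05 (2.14%). A difference between the effects was therefore not shown for any of the 9.

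The wild-type groups, which as far as the labels say differ in poly(I:C), were also compared. HSC wt minus Spred1 wt had a median of -0.13 with 7 of 9 lower, against -0.01 and 52.1% over all genes, and 0 were called by any of the 3 tools (0.0299% of tested genes in edgeR). The sign of that median rested on single libraries: it was -0.0022 without Spred1 wt 1, -0.0094 without HSC wt 3, -0.082 without HSC wt 5 and 0.0047 without Spred1 wt 2 or without HSC wt 4, and between -0.21 and -0.20 without Spred1 wt 4, HSC wt 1 or HSC wt 2. Limma voom gave -0.22. It was 0.040 with Xist as a covariate and 0.12, with 8 of 9 higher, over the libraries with Y-linked transcripts. None had unadjusted p under 0.05 (6.35%) or groups apart (1.9%). Ctnnal1, with the smallest p, was at 0.22 ± 0.12 (edgeR adjusted p = 0.788), Slamf1 at 0.23 ± 0.30 and Ly6a at -0.22 ± 0.19. Global KO, EC KO and HSC wt were each set against the same Spred1 wt libraries, so their differences share those controls. Side by side, Prdm16 was at -0.08, -0.59 and -0.01 in the 3 comparisons, Slamf1 at 0.03, -0.78 and 0.23, and Procr at 0.01, 0.18 and -0.22.

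**Figure D2:**
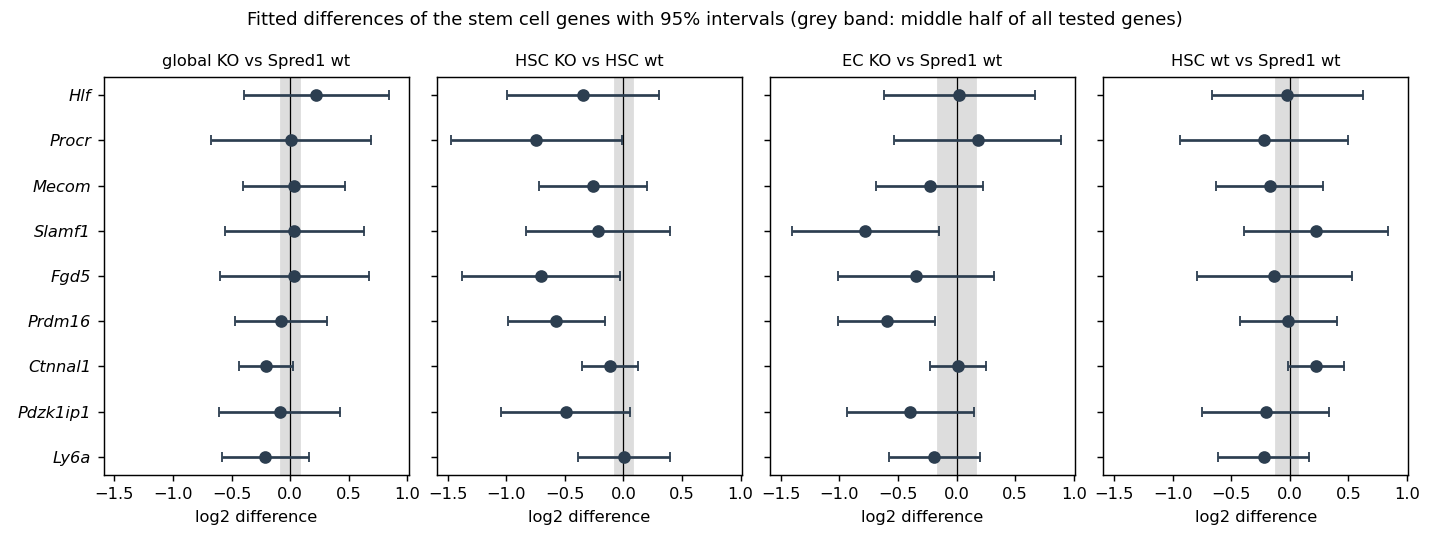
Log2 difference (x axis) of each gene (rows) in 4 comparisons, with 95% intervals as bars and the range between the quartiles of all tested genes as a grey band. In HSC KO against HSC wt 8 of 9 points lie left of 0, and in EC KO the intervals of Slamf1 and Prdm16 do not include 0, though neither passed adjustment over all genes. Genes that varied together between libraries are not separate observations.

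The 9 genes also varied within the groups, between libraries of the same genotype. Each gene's log2 CPM was taken as a deviation from its group mean, and the 36 pairs of genes were correlated over the 26 libraries. Hlf, Procr, Mecom, Fgd5, Prdm16 and Pdzk1ip1 varied together: all 15 pairs among these 6, a grouping chosen after the values were seen, had Pearson r between 0.696 and 0.921 and Spearman rho between 0.720 and 0.906. Slamf1, Ctnnal1 and Ly6a did not join them, and the 21 pairs that hold 1 of these ranged from -0.286 to 0.421. Over all pairs of tested genes 9.54% had r above 0.5 and the median was near 0. The points share the marrow sample, the sort and the depth of each library.

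The closest pair was Hlf and Procr, the regulator and the surface receptor, with r = 0.921 and rho = 0.906 (adjusted permutation p = 3.27e-05 for each, over 36 pairs, from the smallest p that 100000 resamples within groups can give). It was 0.902 without the 2 libraries farthest from the median and between 0.810 and 0.952 within the 5 groups. Procr and Fgd5 followed at r = 0.916 (rho = 0.876), then Fgd5 and Pdzk1ip1 at 0.891 (rho = 0.888) and Hlf and Mecom at 0.880 (rho = 0.857). The loosest pair of the 6 genes was Prdm16 and Pdzk1ip1, at r = 0.696 and rho = 0.748 (adjusted permutation p = 0.00106 for r), with 0.606 without the 2 farthest libraries. It was also the 1 pair of 15 that was not positive within every group, reaching -0.232 in 1 of them. Each of the 15 passed at an adjusted permutation p of 0.00106 or less.

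Of the other 21 pairs 0 passed, and the smallest adjusted permutation p was 0.0913, for Mecom and Slamf1 (r = 0.421, rho = 0.448, and 0.352 without the 2 farthest libraries). Slamf1 and Hlf, both stem cell markers, had r = 0.279 and rho = 0.228 (adjusted permutation p = 0.279 for r). Ly6a was near 0 with Fgd5 (r = 0.0124), Mecom (-0.0376) and Hlf (-0.0805), and lowest with Ctnnal1 (-0.286). These are estimates over 26 libraries, and a p that misses the threshold does not show that the genes are unrelated. Slamf1 had the lowest counts of the 9 genes, and Ctnnal1 the narrowest range over libraries.

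**Figure D3:**
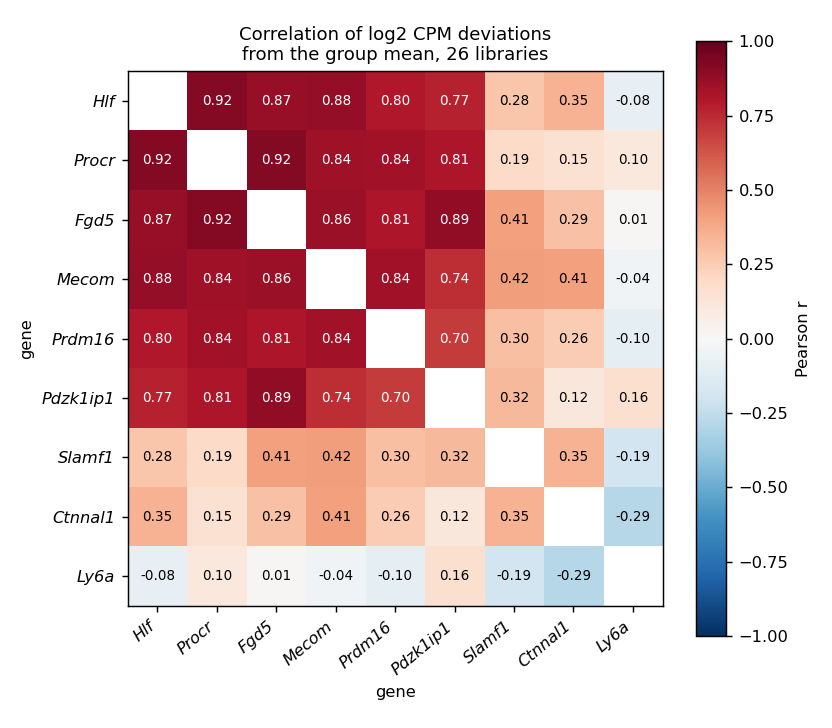
Pearson r between genes (rows and columns) of log2 CPM deviations from the group mean over 26 libraries, with colour from -1 to 1. The 6 genes from Hlf to Pdzk1ip1 form a block with r of at least 0.696, and the pairs with Slamf1, Ctnnal1 or Ly6a reach at most 0.421.

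The shared variation showed in single libraries. In global KO, library 2 was the lowest of its group for 6 of the 6 genes, in HSC wt library 4 and in HSC KO library 5. EC KO 5 was the highest of its group for all 6, with 394 CPM of Hlf, 39.6 of Procr, 59.7 of Mecom, 23.7 of Fgd5, 25.2 of Prdm16 and 17.7 of Pdzk1ip1. Global KO 6 and HSC wt 1 were the highest of their groups for 5 of 6, and Spred1 wt 4 and EC KO 2 were the lowest for 5 of 6. Hlf thereby differed more between libraries of EC KO (135 to 394 CPM) than between the means of any 2 groups (169 to 254 CPM). Of the low libraries, HSC wt 4, HSC KO 5 and EC KO 2 hold Xist, and global KO 2 and Spred1 wt 4 hold Y-linked transcripts. Of the high libraries, EC KO 5, global KO 6 and HSC wt 1 hold Y-linked transcripts. HSC KO 1, the highest of its group for 4 of 6, holds Xist. In each group with libraries of both kinds, the library lowest for most of the 6 genes thus held Xist. The part of sex in this variation was not tested.

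**Figure D4:**
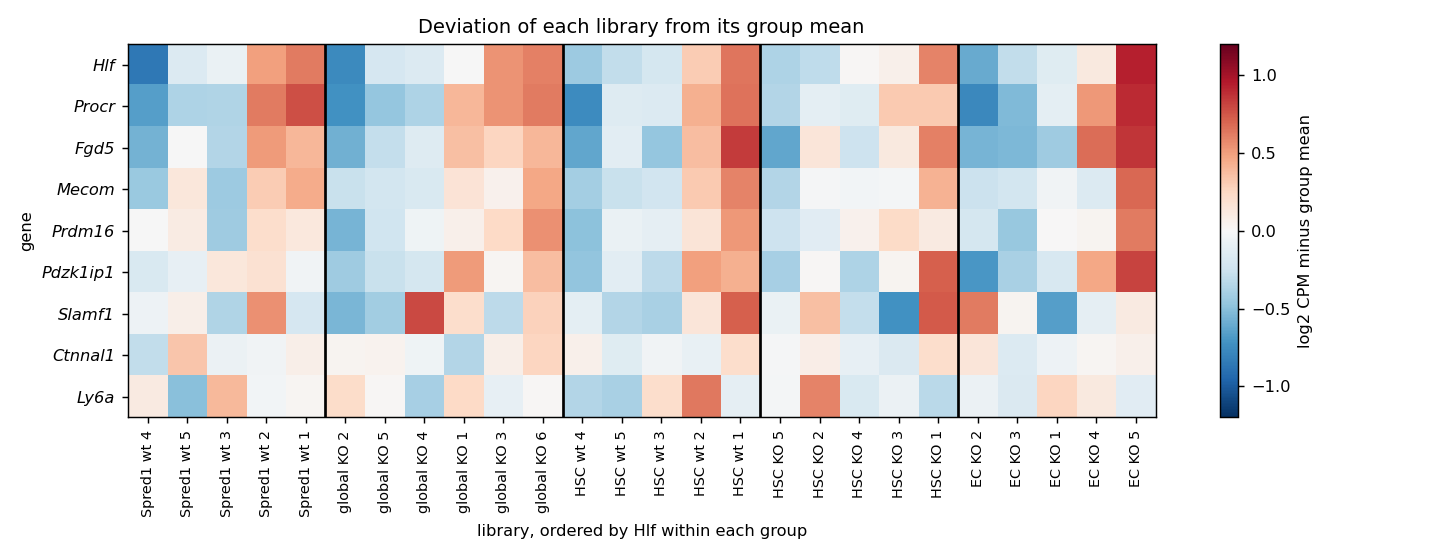
Deviation of each library from its group mean (colour, log2 CPM) for the 9 genes (rows), with the 26 libraries (columns) ordered by Hlf within each group and groups divided by black lines. The upper 6 rows go largely from blue to red together within the groups, least so in Spred1 wt for Prdm16 and Pdzk1ip1, with EC KO 5 red in all 6. Slamf1, Ctnnal1 and Ly6a follow the order less closely, with r to Hlf of 0.279, 0.350 and -0.0805.

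The same 6 genes were related to other gene lists across libraries, whereas few relations of the other 3 passed the test. Of 144 relations between a gene and the mean of a list, 58 passed at an adjusted permutation p under 0.05. The share that would pass for other tested genes was not computed. The count is therefore not shown to be particular to the stem cell genes followed here. Hlf had r = 0.797 with the 20 other stem cell genes (rho = 0.857, 0.729 without the 2 farthest libraries, adjusted permutation p = 0.000288). It had r = -0.633 with 12 mitosis genes such as Mki67 and Top2a (rho = -0.649, -0.490 without the 2 farthest, adjusted permutation p = 0.00379), and r = -0.691 with the mast cell and basophil genes (rho = -0.668, -0.684, adjusted permutation p = 0.00152). Both negative relations held in sign within all 5 groups. Libraries high in Hlf were thus high in other stem cell genes and low in mitosis and mast cell genes. Mecom had the strongest relation with mitosis, r = -0.808. Procr had r = 0.817 with the other stem cell genes, Prdm16 0.829, Fgd5 0.857 and Pdzk1ip1 0.862.

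Lists of other kinds moved with these genes too, so the relation was not particular to stem cell lists. Hlf had r = 0.739 with genes of lymphoid priming, 0.764 with the lineage gate markers and 0.698 with endothelial genes, a list in which Pecam1 was by far the highest (161 ± 12.1 CPM in Spred1 wt). How far each of these lists accounts for the shared variation was not tested. Slamf1 passed with none of the 16 lists, its largest being the other stem cell genes (r = 0.456, rho = 0.467, adjusted permutation p = 0.0808). Ctnnal1 passed with myeloid priming (r = -0.546) and Ly6a with the relatives and partners of Hlf (r = 0.637), each with that list alone.

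**Figure D5:**
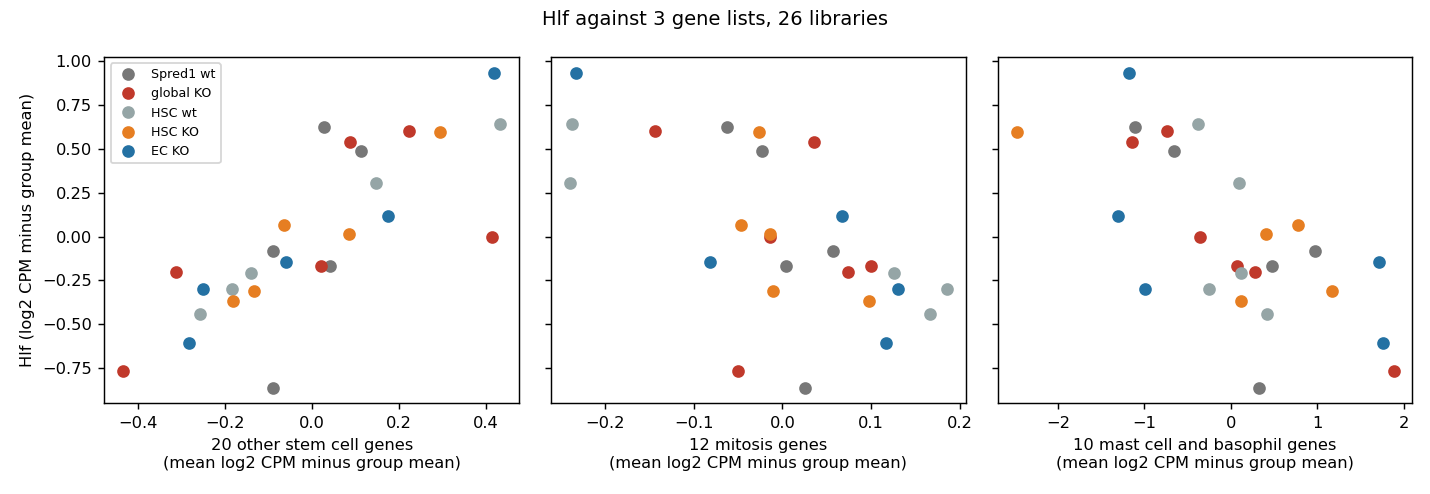
Hlf (y axis) against the mean of 3 gene lists (x axes), both as log2 CPM deviations from the group mean, in 26 libraries coloured by group. Hlf runs with the 20 other stem cell genes (r = 0.797) and against 12 mitosis genes (r = -0.633) and 10 mast cell and basophil genes (r = -0.691).

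For each gene the 3 tested genes with the most similar pattern over the 26 libraries were named by r of the same deviations, as a description without a test. Hlf was closest to Zfp608 (r = 0.98), Gcnt2 (0.97) and Crispld1 (0.97), and Procr to Trp53i11 (0.95), Prkag2 (0.94) and Carmil2 (0.93). Mecom and Prdm16 shared their closest gene, Krba1 (0.91 with each), which was followed by Uba7 (0.91) and Car2 (0.91) for Mecom and by Nlgn2 (0.89) and the overlapping 5930403L14Rik (0.88) for Prdm16. Fgd5 was closest to Arhgef5 (0.94), Hdac7 (0.93) and Mmrn1 (0.92), and Pdzk1ip1 to Gimap1 (0.94), Agpat3 (0.91) and Calcoco1 (0.90). The genes outside the block had looser neighbours. Slamf1 was closest to Vwf (0.80), the platelet-primed stem cell gene, then to Ehd3 (0.76) and Hoxb8 (0.74), of which Hoxb8 averaged 0.383 CPM. Ctnnal1 was closest to Gm15760 (0.77), Stap1 (0.77) and Zfp507 (0.76), and Ly6a to Zmat3 (0.77), Nr2f6 (0.74) and Tmbim1 (0.73).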

How the data were processed

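The authors deposited a table of raw read counts per gene and library for 26 libraries, whole numbers without normalization. The submitters' processing notes name mm10 as the build and, with no role given, the tools edgeR 3.28.1, HTSeq 0.6.0, STAR 2.6.0 and bcl2fastq 2.18.0.12. The annotation and strand setting are not given in the sources used here, so counts of overlapping genes and paralogs are uncertain. Groups follow the titles and genotype labels. Levels are CPM on TMM-scaled library sizes. After filterByExpr (minimum count 10) all 26 libraries entered 1 fit of group means in edgeR 4.0.16 (R 4.3.3), with two-sided quasi-likelihood F-tests and Benjamini-Hochberg adjusted p under 0.05 over 13379 genes. Standard errors and 95% intervals come from that fit. A floor of 3 counts (0.112 to 0.202 CPM) covers counting error only. Log2 CPM used a prior count of 2. The plan gave no p for correlations between genes; permutation p-values (100000 resamples within groups) were added later, adjusted over 36 pairs or 144 relations. Scripts also used Python 3.11.15, NumPy 2.4.6 and matplotlib 3.10.9, and were tested on simulated data.

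Named are the 9 genes, with every library's value for the gene of smallest p in a comparison; the 3 genes most like each; list genes past the threshold; 3 genes of smallest p of the other stem cell list; and up to 3 abundant genes of other lists. Hlf, Procr, Slamf1 and Fgd5 in every library, and the genes named from the partner, gate, mast cell and endothelial lists beyond that rule, were chosen after their values were seen. The 9 genes and all lists were chosen with earlier results of these data known. Alternatives were DESeq2 1.42.0, limma 3.58.1 voom, other normalizations, filters, covariates and controls, the compared groups alone and each library left out; the fit over libraries with Y-linked transcripts, and the alternatives for the other lists, were chosen after seeing the data.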

Additional observations from a re-analysis of the deposited data

Results flagged for a closer look

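Of 45 sets of values, 1 gene in 1 group each, 2 held a library far from the others of its group, and chance marks about 1 set in 20. Mecom was at 59.7 CPM in EC KO 5, where the nearest EC KO library was at 35.8 CPM, a gap of 0.827 of the group's range. Ly6a was at 82.3 CPM in HSC KO 2, where the nearest HSC KO library was at 53.5 CPM, a gap of 0.744 of the range.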

How the results depend on the processing

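In HSC KO, global KO, HSC wt and the difference of effects, 0 of the 9 genes were called in any alternative run. In EC KO 1 gene was called by DESeq2, by limma voom and with HSC wt as control, 2 with the mean of both wild types as control and 4 with the mast cell covariate, and 0 to 1 with a library left out. The median of the 9 genes changed sign in HSC wt and in global KO, where it lay near 0, and moved beyond the spread between libraries in 2 cases, to -0.72 in EC KO with the mast cell covariate and to -0.72 in HSC KO with Y-transcript libraries. Over all genes, DESeq2 called 35 in global KO (10 in edgeR), 5 in HSC KO (3), 32 in HSC wt (4) and 7 in the difference (2). Limma voom called 1840 in EC KO (1065), 16 in HSC wt and 5 in the difference. The Xist covariate gave 701 in EC KO, and the mast cell covariate 19 in global KO, 5 in HSC KO, 2684 in EC KO and 75 in HSC wt. The compared groups alone gave 4 in global KO, 333 in EC KO and 1 in HSC wt, both wild types as control 2052 in EC KO, and Y-transcript libraries 0 in HSC KO, 1 in HSC wt and 1 in the difference. With a library left out, counts ran from 8 to 25 in global KO (25 without Spred1 wt 1, 24 without Spred1 wt 2, 21 without global KO 2) and from 483 to 1880 in EC KO (483 without EC KO 3, 584 without Spred1 wt 5, 628 without EC KO 4, 1880 without EC KO 5). They ran from 2 to 7 for the difference (7 without Spred1 wt 1, 4 without global KO 2) and from 1 to 21 in HSC wt, with 21 without Spred1 wt 1 and 1 or 2 without each HSC wt library, Spred1 wt 3 or Spred1 wt 4.

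Log2 differences of the 9 genes that turned sign had mostly been near 0, and none of them was called before. In global KO, Procr was at -0.0018 (DESeq2), -0.0026 (RLE factors), -0.0020 (upper quartile), -0.00034 (1 CPM filter), -0.014 (Xist covariate), -0.0034 (compared groups only) and -7.1e-05 (Y-transcript libraries). In HSC KO, Ly6a was at -0.012 (DESeq2 and RLE), -0.024 (upper quartile), -0.0087 (no filter), -0.0097 (1 CPM filter) and -0.014 (compared groups only). In EC KO, Ctnnal1 was at -0.0022 (DESeq2), -0.0038 (RLE and 1 CPM filter), -0.00047 (no filter), -0.025 (limma voom), -0.0058 (Xist), -0.036 (mast cell), -0.012 (compared groups only), -0.21 (HSC wt as control), -0.099 (both wild types) and -0.035 (Y-transcript libraries). Limma voom gave Procr -0.25, Mecom -0.14, Slamf1 -0.039 and Fgd5 -0.17 in global KO, Hlf -0.18 and Procr -0.032 in EC KO and Slamf1 -0.061 in HSC wt. The mast cell covariate gave Hlf -0.093, Procr -0.31, Mecom -0.12, Slamf1 -0.094 and Fgd5 -0.27 in global KO, and Hlf -0.72, Procr -0.60 and Ly6a 0.043 in EC KO; HSC wt as control gave Ly6a 0.035. In HSC wt, the Xist covariate gave Hlf 0.082, Fgd5 0.040 and Prdm16 0.067, and Y-transcript libraries Hlf 0.21, Procr 0.045, Mecom 0.049, Fgd5 0.12, Prdm16 0.17 and Ly6a 0.013, with Ctnnal1 at 0.0076 in the difference. The cause of these changes was not tested.

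With a library left out, signs turned in the ranges that follow. In global KO these were Slamf1 -0.17 to 0.20, Procr -0.14 to 0.22, Mecom -0.076 to 0.14, Fgd5 -0.095 to 0.17 and Prdm16 -0.21 to 0.0062. In EC KO they were Hlf -0.31 to 0.17, Procr -0.12 to 0.38 and Ctnnal1 -0.071 to 0.084, and in HSC KO Slamf1 -0.44 to 0.0025 and Ly6a -0.19 to 0.18. In HSC wt they were Hlf -0.21 to 0.14, Prdm16 -0.16 to 0.096 and Fgd5 -0.39 to 0.0047, and in the difference Ctnnal1 -0.16 to 0.0061. Slamf1 had 35 to 167 counts per library, which limits the precision of its levels. No paired analysis was possible because the labels number all libraries in 1 run and give groups no shared replicate numbers.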

Other observations

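The direction of interferon-stimulated genes, read from a list of 15, rested on 1 library in HSC KO. All 15 had positive differences in HSC KO against HSC wt (median 0.37, where 56.9% of all tested genes were above 0) and 0 passed the edgeR test. The mean log2 CPM of the list was 4.52 in HSC KO 1 and 2.27 to 2.47 in HSC KO 2 to 5, below every HSC wt library (2.55 to 3.03). Without HSC KO 1, 14 of 15 were lower in HSC KO (median -0.45), again with 0 called. All 15 were lower in HSC wt than in Spred1 wt (median -0.72), where 52.1% of all tested genes were, also with 0 called. In EC KO 13 of 15 were lower than in Spred1 wt and 1 fell, where 46.5% of all tested genes were lower and 7.96% were called. It was Oasl2, by 2.02 on the log2 scale (edgeR adjusted p = 0.00665). The list's mean log2 CPM was 2.09 and 2.22 in EC KO 1 and 2, the libraries with Xist, and 3.32 to 3.73 in the other EC KO libraries, and over the libraries with Y-linked transcripts 7 of 15 were lower (median 0.02). Genes of lymphoid priming were higher in 10 of 10 cases in HSC KO (median 0.69), but without HSC KO 1 in 6 of 10 (median 0.0086), and in HSC wt 10 of 10 were lower than in Spred1 wt (median -0.81), with 0 called in any of these fits. HSC KO 1 was at 5.99 in the mean log2 CPM of that list, the other HSC KO libraries at 3.95 to 4.79 and HSC wt at 3.98 to 4.57. The fits of these lists without a library were chosen after seeing the data. The mitotic kinase gene Cdk1 rose by 0.35 in EC KO (edgeR adjusted p = 0.0368), where 7.96% of all tested genes were called. It was the 1 mitosis gene of 12 that passed in any comparison. These lists share libraries and controls with the results above, and the spread of the mast cell and Xist transcripts across groups applies to them as well; its part was not tested.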
